A study of Mus musculus with 6 samples.

Results

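Axon guidance ligands and receptors are described here across mouse embryonic stem (mES) cells and epiblast stem cells (EpiSCs), grown with or without SB431542, a small-molecule inhibitor of the Activin, Nodal and TGF-beta type I receptors. The genes were taken by name. They are the ephrins with their Eph receptors and the semaphorins with the neuropilins and plexins. The Slits and Robos, and the netrins with Dcc and the Unc5 receptors, complete the set. The set itself was chosen with earlier results of these data known. The name pattern matched 69 mouse genes in RefSeq, and 63 of them had a probe on the array, with 88 of its 41174 probes. The other 6, namely Plxnd1, Plxnb2, Robo3, Sema4c, Sema3g and Efna3, were not measured through a named probe. Each gene is represented by its brightest probe, and its level is log2 of the probe intensity minus the array's 75th percentile, so that 0 is the intensity of a spot at that percentile.

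Guidance ligands steer growing axons and migrating cells by attraction or repulsion through receptors on the cell surface. Ephrins are held on the membrane of one cell and bind Eph receptor tyrosine kinases on the next, and both sides signal; secreted class III semaphorins mostly act through a neuropilin paired with a plexin, whereas membrane semaphorins bind plexins directly. Slits repel through Robo receptors, and netrin attracts through Dcc and repels through Unc5 receptors. Outside the nervous system the same proteins set tissue boundaries in the early embryo and pattern blood vessels, and several are found in epithelia and in pluripotent cells.

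Total RNA was taken from 6 cultures of strain 129 cells, all grown in Knockout DMEM with KSR, and each was hybridised to 1 one-colour (Cy3) Agilent array. The groups were mES cells labelled with stage E3.5, an EpiSC line labelled E3.5 and an EpiSC line labelled E5.5, each untreated or given 20 uM SB431542 daily for 4 days. With 1 array per group, the E3.5 and E5.5 lines served as the 2 samples of the EpiSC class, and a lone mES array was assumed to vary as the EpiSC arrays did. The p-values therefore measure only the spread between these arrays, which may be technical. Where the 2 lines form such a class with no line block, that spread is the difference between the E3.5 and E5.5 arrays. All comparisons below draw on the same 6 arrays and share groups with one another. Their 75th-percentile intensities ran from 1190 to 1801, and 82.6 to 85.7% of the gene spots were well above background. Both mES arrays and both E5.5 arrays shared a slide, while the 2 E3.5 arrays lay on a slide each. Slide therefore cannot be told apart from the E3.5 line. Within that line it cannot be told apart from the SB431542 response either.

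The labels were compared with pluripotency markers. Pou5f1, a core pluripotency factor, had levels of 5.59 and 5.35 in untreated and treated mES cells and of 5.73 and 5.88 in untreated E3.5 and E5.5 EpiSCs. Fgf5, an epiblast marker, was at 3.07 and 4.32 in the untreated EpiSC lines against -2.62 in untreated mES cells. Both markers were low in the treated EpiSC cultures, where Pou5f1 was at -5.39 and -4.38 and Fgf5 at -6.29 and -6.04, so the treated arrays labelled EpiSC did not carry the epiblast markers of their untreated counterparts. Of the 63 guidance genes, 52 were well above background on all 6 arrays, and the other 11 on 1 to 5 arrays. The number detected was 53 in untreated and 52 in treated mES cells and between 60 and 62 on the 4 EpiSC arrays. Epha3, Sema3c, Sema3d, Nrp1, Robo2, Ntn4 and Dcc were above background on all EpiSC arrays and on no mES array, so their presence in the tests rests on the EpiSC arrays.

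**Figure D1:**
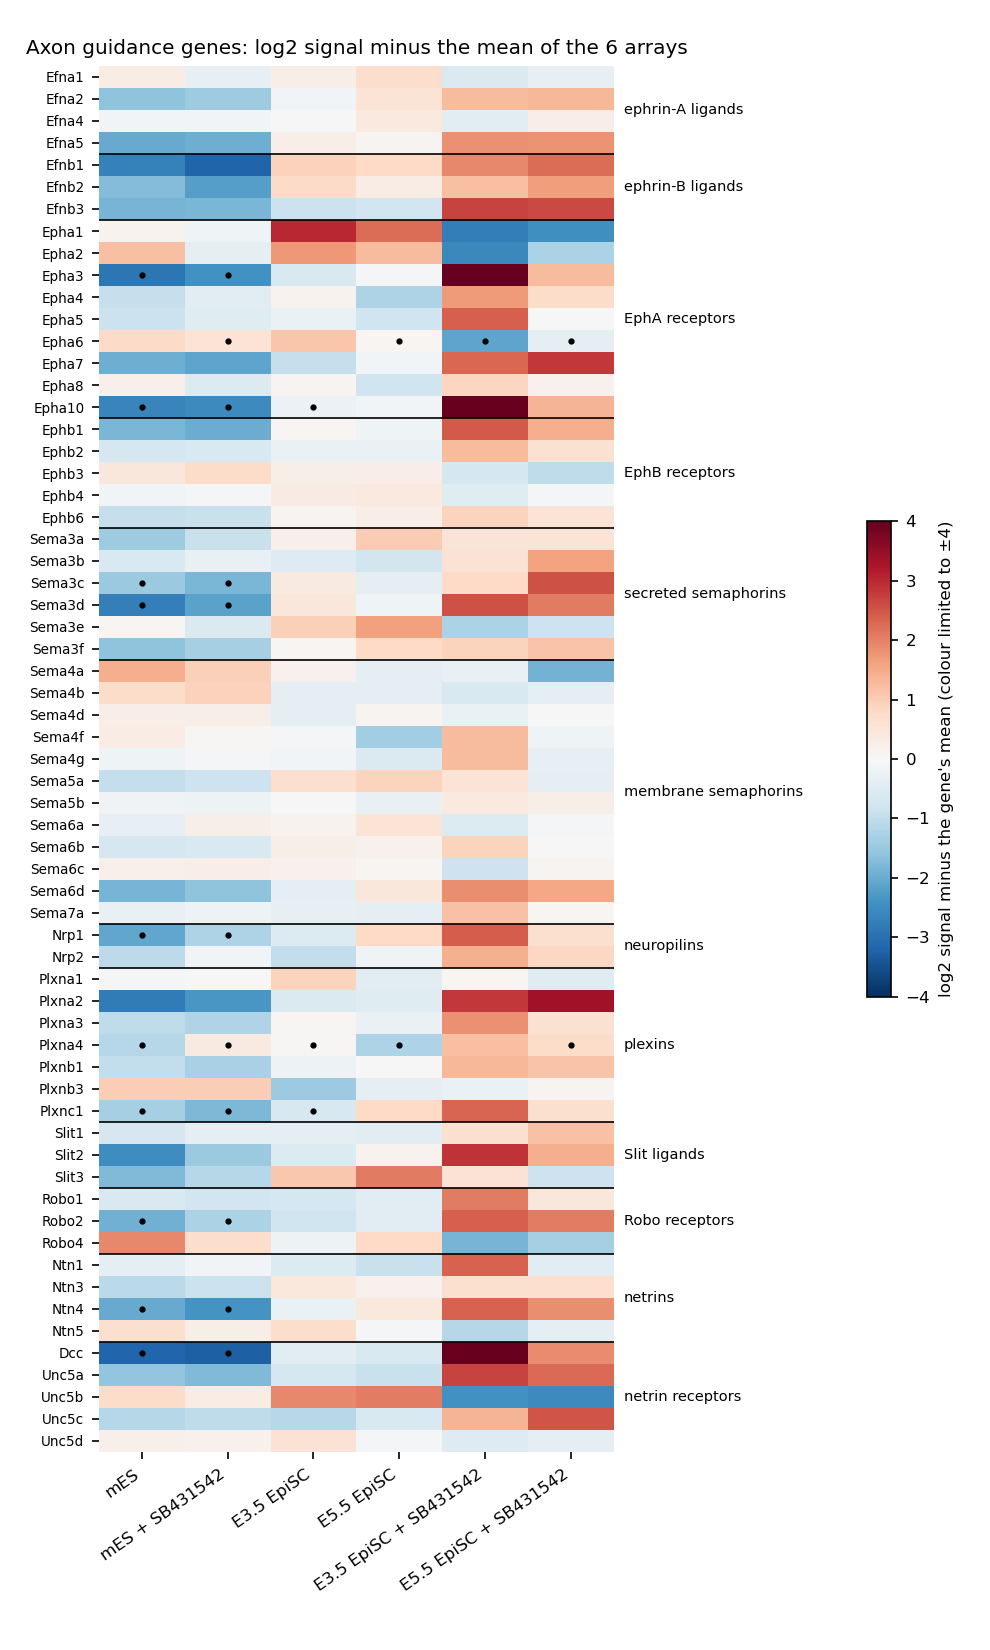
Level of each of the 63 guidance genes (rows, by family) on each of the 6 arrays (columns), as the log2 level minus the gene's own mean over the arrays; the colour scale is limited to 4 on either side of 0, and dots mark values not well above background. The dots gather in the 2 mES columns, where 53 and 52 genes were above background, and Epha1 and Unc5b are high in untreated EpiSCs and low after SB431542.

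With SB431542, guidance genes of EpiSCs changed in both directions. The ephrin Efnb3, the Eph receptor Epha7, the plexin Plxna2, the Slit receptor Robo2 and the netrin receptor Unc5a rose, and the receptors Epha1 and Unc5b fell, each by 7-fold or more. These were 5 genes higher and 2 lower of 63 (11.1%), where 0.891% of all 16153 tested genes were higher and 1.20% lower (2.09% in all), by limma at an adjusted p under 0.05. The median change of the 63 genes was 1.07 on the log2 scale, and that of all tested genes was -0.19. With the cell line as a block, 9 rose and 5 fell (22.2%), where 2.14% and 2.87% of all genes did (5.01% in all). That fit leaves 1 residual degree of freedom, the difference in response between the 2 EpiSC lines, so calls that pass only with the block rest on little. At an unadjusted p under 0.05 there were 36 of the 63, against 19.8% of all genes, and 41 with the block, against 23.7%. Robo2, and Sema3d among the calls with the block, were in the test through the EpiSC arrays alone. Of the 52 guidance genes above background on all 6 arrays, 4 rose and 2 fell without the block. Of all such genes 0.829% and 1.09% did. Leaving out either treated EpiSC array left 0 calls among these genes and in the whole table.

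**Figure D2:**
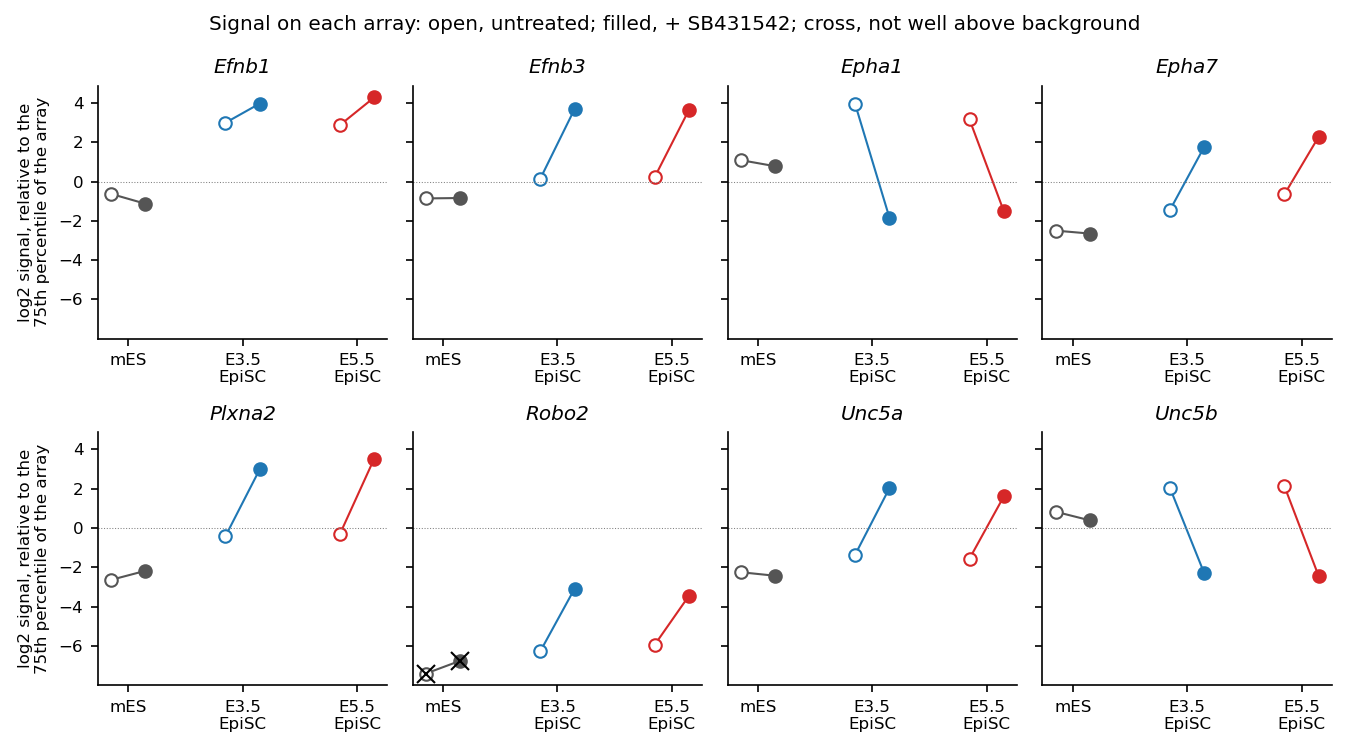
Level on each of the 6 arrays (vertical axes, log2 intensity minus the array's 75th percentile) of the 8 guidance genes that passed limma for SB431542 in EpiSCs or for untreated EpiSCs against mES cells; each point is 1 array, open without and filled with SB431542, lines join the arrays of a line, and crosses mark spots not well above background. Unc5b lies at 2.04 and 2.14 in untreated EpiSCs and at -2.31 and -2.45 after treatment, whereas Plxna2 moves from -0.42 and -0.32 to 2.99 and 3.52.

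Promoter sequences are shown for 4 genes with large changes of opposite direction, the 2 that fell (Epha1, Unc5b) and 2 receptors that rose (Plxna2, Unc5a), so that the composition of their start regions can be compared. Each is the 250 bases before the annotated start from the RefSeq table of GRCm38.p6, read 5' to 3' on the gene's strand; the windows are chr6:42373269-42373518 (minus strand) for Epha1, chr10:60831582-60831831 (minus) for Unc5b, chr1:194619579-194619828 (plus) for Plxna2 and chr13:54949161-54949410 (plus) for Unc5a. Capitals mark the GC box bound by SP and KLF factors (GGGCGG on either strand), a motif chosen after these sequences were seen.
Epha1: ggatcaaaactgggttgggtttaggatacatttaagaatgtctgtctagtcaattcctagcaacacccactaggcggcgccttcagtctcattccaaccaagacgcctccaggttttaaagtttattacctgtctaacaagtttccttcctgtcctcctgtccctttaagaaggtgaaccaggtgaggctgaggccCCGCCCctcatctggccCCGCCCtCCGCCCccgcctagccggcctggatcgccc
Unc5b: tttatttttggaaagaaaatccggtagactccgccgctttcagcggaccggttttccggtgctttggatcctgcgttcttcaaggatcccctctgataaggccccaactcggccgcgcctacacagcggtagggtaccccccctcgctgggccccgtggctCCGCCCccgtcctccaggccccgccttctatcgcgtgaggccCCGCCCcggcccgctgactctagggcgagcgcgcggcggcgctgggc
Plxna2: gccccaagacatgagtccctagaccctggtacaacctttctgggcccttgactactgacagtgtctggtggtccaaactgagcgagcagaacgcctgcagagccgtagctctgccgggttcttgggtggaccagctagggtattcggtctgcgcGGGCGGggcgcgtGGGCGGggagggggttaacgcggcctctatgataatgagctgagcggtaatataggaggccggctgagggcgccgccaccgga
Unc5a: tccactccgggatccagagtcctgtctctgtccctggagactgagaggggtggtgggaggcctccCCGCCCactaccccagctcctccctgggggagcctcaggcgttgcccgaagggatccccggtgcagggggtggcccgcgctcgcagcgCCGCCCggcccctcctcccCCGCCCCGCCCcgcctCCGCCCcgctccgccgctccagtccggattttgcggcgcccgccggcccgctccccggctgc
The Epha1 window holds 3 GC boxes, those of Unc5b and Plxna2 hold 2 each and that of Unc5a holds 5, so the genes that fell and those that rose both carry them. Their G+C content is 54.4%, 66.8%, 62.8% and 76.8%, in the order printed. Windows were found for 53 of the 63 genes (66 windows, as some genes have several starts). Among these, 66.7% held a GC box, against 32.7% of all 32851 windows in the table, and their median G+C content was 64.4% against 52.4%. GC boxes and G+C content go together, so the 2 figures are not separate observations. The other motifs, searched on both strands, were at shares closer to the background: CAGCTG (E-box of proneural factors) in 16.7% of the guidance gene windows against 13% of all, ACAATGG (SOX) in 3.03% against 3.02%, AATNCACA (FOXH1) in 3.03% against 3.18%, and ATGCAAAT (POU octamer) and GTCTAGAC (SMAD palindrome) in none against 1.6% and 0.167%. None of these 5 motifs lies in the 4 printed windows, and a motif match is a description of letters only.

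Among the ephrins, Efnb3, a ligand found on the neural midline, rose in both EpiSC lines. Its level was -0.86 and -0.84 in untreated and treated mES cells, 0.14 and 0.22 in untreated E3.5 and E5.5 EpiSCs, and 3.69 and 3.65 in the treated lines. The 2 treated EpiSC arrays lay far above the other 4, and the change was 3.49 ± 0.25 (SE) on the log2 scale (11.2-fold; limma adjusted p = 0.0233). Efnb1 and Efnb2, the ligands of EphB receptors at tissue boundaries, did not pass: their changes were 1.19 ± 0.27 (adjusted p = 0.12) and 0.90 ± 0.33 (adjusted p = 0.24), although treated and untreated EpiSC arrays did not overlap. Efna5, a repellent for retinal axons, was at -2.07 and -2.01 in mES cells, 0.20 and 0.05 in untreated EpiSCs and 1.78 and 1.74 after treatment. That change, 1.64 ± 0.26, also missed the threshold (adjusted p = 0.0614). A second Efna5 probe gave a change of 0.84. Its untreated EpiSC minus mES difference was -0.49, against 2.2 by the brightest probe.

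The EphA receptors included falls and rises. Epha1, an Eph receptor of epithelia, was at 1.09 and 0.78 in mES cells, 3.95 and 3.16 in untreated E3.5 and E5.5 EpiSCs and -1.84 and -1.51 after treatment. Untreated EpiSCs were the highest and treated EpiSCs the lowest of the 3 sets of arrays, and the fall was -5.23 ± 0.38 (37.5-fold; limma adjusted p = 0.0233). Epha2, another receptor of epithelia and pluripotent cells, was at 3.5 and 1.93 in untreated and treated mES cells, 4.04 and 3.56 in untreated EpiSCs and -0.28 and 1.02 in treated EpiSCs. Every treated culture lay below its own untreated one. The change in EpiSCs was -3.43 ± 0.52 and passed with the line as a block (adjusted p = 0.0361) and not without it (adjusted p = 0.0583).

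Epha7, a receptor of the developing forebrain, was at -2.5 and -2.65 in mES cells, -1.45 and -0.66 in untreated E3.5 and E5.5 EpiSCs and 1.77 and 2.28 after treatment. It rose by 3.08 ± 0.40 (limma adjusted p = 0.0451), a call lost without the untreated E3.5 array (adjusted p = 0.085). Epha4, a receptor for both ephrin classes, was at 0.44 and 0.90 in mES cells, 1.52 and 0.14 in untreated EpiSCs and 3.08 and 2.11 after treatment. The lines started at different levels and moved in parallel, so its change of 1.76 ± 0.61 passed only with the line as a block (adjusted p = 0.0483, against 0.222 without).

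Epha3 and Epha10 had larger ratios in the E3.5 than in the E5.5 line. Epha3, a receptor of motor axons, was at -5.83 and -0.52 before and after treatment in the E3.5 line, and at -5.27 and -3.98 in the E5.5 line. Epha10, a receptor that lacks kinase activity, was not above background in mES cells and untreated E3.5 cells and reached -1.58 in treated E3.5 cells. The processed signals of the 2 E3.5 arrays had a ratio of 21.4, with the untreated one not above background. In the E5.5 line Epha10 went from -5.88 to -4.40. Neither passed over both lines (adjusted p = 0.232 and 0.203). Of the EphB receptors, Ephb1, which acts at the optic chiasm, was at -4.73 and -4.88 in mES cells, -2.81 and -3.07 in untreated EpiSCs and -0.44 and -1.44 after treatment. Its change of 2.0 ± 0.42 passed with the line as a block (adjusted p = 0.0468) and not without (adjusted p = 0.102).

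No secreted semaphorin passed without the block. Sema3d was not above background in mES cells, and its level was -5.45 and -6.08 in untreated E3.5 and E5.5 EpiSCs and -3.36 and -3.81 in treated ones. The change, 2.18 ± 0.36, passed with the block (adjusted p = 0.0311, against 0.066 without). Sema3e, the ligand of Plxnd1, moved the other way: its level was -2.99 and -3.65 in mES cells, -2.13 and -1.45 in untreated EpiSCs and -4.35 and -3.92 in treated ones. Its change of -2.35 ± 0.36 likewise passed only with the block (adjusted p = 0.0275, against 0.0608). A second Sema3e probe gave a log2 change of -3.73, and the third was above background on the 3 untreated arrays only. Sema3c had ratios that differed between the lines, from -4.68 to -4.24 in E3.5 and from -5.43 to -2.51 in E5.5 cells. By their brightest probes, none of the 12 membrane semaphorins passed in either fit, and their changes ran from -0.99 to 1.67, the highest being Sema6d. Second probes of Sema5b (3.38), Sema6d (1.82), Sema5a (-1.58) and Sema6a (-1.24) lay outside this range. Those of Sema4d and Sema6c lay within it.

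On the receptor side, Plxna2, a plexin that pairs with neuropilins and also binds class VI semaphorins, was at -2.64 and -2.18 in mES cells, -0.42 and -0.32 in untreated EpiSCs and 2.99 and 3.52 after treatment. The 3 sets of arrays did not overlap, and the rise was 3.63 ± 0.31 (12.4-fold; limma adjusted p = 0.0259). Its other 2 probes gave changes of 3.36 and 3.07. The remaining 6 plexins did not pass. Among them, Plxnb1 had a change of 1.31 ± 0.27 (adjusted p = 0.0981), and Plxna1, which had levels between 1.67 and 3.06 over the arrays, one of -0.45 ± 0.53 (adjusted p = 0.65). The neuropilins did not pass either: Nrp2 was at 0.26 and 1.1 before and 2.67 and 2.07 after treatment in the E3.5 and E5.5 lines, and Nrp1, not above background in mES cells, was at -5.83 and -4.50 before and -2.88 and -4.64 after.

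Of the Slits, which repel axons through Robo receptors, Slit2 was at -3.47 and -2.48 in mES cells, -1.54 and -0.85 in untreated E3.5 and E5.5 EpiSCs and 1.90 and 0.44 after treatment. Its change of 2.36 ± 0.59 did not pass (adjusted p = 0.137). Slit3 had the opposite sign in both lines, from -0.39 to -0.90 in E3.5 cells and from 0.58 to -2.31 in E5.5 cells (-1.70 ± 0.61, adjusted p = 0.235). Robo2, a receptor for both, was not above background in mES cells; its level was -6.28 and -5.95 in untreated and -3.09 and -3.45 in treated EpiSCs. It rose by 2.84 ± 0.30 (limma adjusted p = 0.0343), and a second probe was above background on the 2 treated EpiSC arrays only. The call did not hold with normexp background correction (0.79, adjusted p = 0.262), nor without the untreated E3.5 array (adjusted p = 0.081) or the untreated E5.5 array (adjusted p = 0.0529). Robo1 had changes of the same sign, from -1.96 to 0.82 in E3.5 and from -1.68 to -0.78 in E5.5 cells, and did not pass (adjusted p = 0.20).

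Robo4, the Robo receptor of endothelium, went against the other Robos. It was at -0.54 and -1.74 in untreated and treated mES cells, -2.66 and -1.67 in untreated EpiSCs and -4.33 and -3.80 in treated EpiSCs. The change in EpiSCs, -1.90 ± 0.45, passed with the block (adjusted p = 0.0429, against 0.122 without). None of 10 endothelial markers passed in this comparison; their summed level, in multiples of the array's 75th percentile, was 6.22 and 17.2 in untreated E3.5 and E5.5 EpiSCs and 2.19 and 6.92 after treatment. Of the 10, 7 and 9 were above background in untreated E3.5 and E5.5 EpiSCs and 8 and 9 after treatment. Tek was not above background on 3 of the 4 EpiSC arrays, nor was Tie1. The median change of the list was -0.82, against -0.19 for all genes. The part of endothelial RNA in the Robo4 and Unc5b values was not tested. In bulk RNA, fewer cells of a type and less RNA per cell cannot be told apart, which holds for every result here.

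The netrin receptors had the highest median change with SB431542 of the 12 families, 2.82, and included both a fall and a rise. Unc5b, a repulsive receptor also found in vessels, was at 0.83 and 0.39 in mES cells, 2.04 and 2.14 in untreated EpiSCs and -2.31 and -2.45 after treatment. As with Epha1, untreated EpiSCs were above and treated EpiSCs below the mES arrays, and it fell by 4.47 on the log2 scale (-4.47 ± 0.26; 22.2-fold; limma adjusted p = 0.0227). Its paralogue Unc5a, a receptor of neurons, moved oppositely, from -1.36 and -1.56 to 2.03 and 1.61, with -2.25 and -2.43 in mES cells. That rise was 3.28 ± 0.29 (9.73-fold; limma adjusted p = 0.0273). Unc5c was at -3.58 and -3.43 in mES cells, -3.55 and -3.05 in untreated EpiSCs and -1.06 and 0.10 in treated ones, and its change of 2.82 ± 0.49 passed with the block (adjusted p = 0.024, against 0.0726). Unc5d did not pass (-0.69 ± 0.33).

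Dcc, the attractive netrin receptor, had the widest span of the 63 genes over the arrays, 8.85 on the log2 scale. It was not above background in mES cells, was at -5.51 and -5.66 in untreated E3.5 and E5.5 EpiSCs, and reached 0.55 in treated E3.5 but -3.15 in treated E5.5 cells. Both lines had a higher level with treatment, but the ratios differed so much that the change of 4.29 ± 1.24 did not pass (adjusted p = 0.175; 0.072 with the block). Its ligand netrin 1 (Ntn1) was at -3.93 and -1.02 before and after treatment in E3.5 cells and at -4.28 and -3.85 in E5.5 cells (adjusted p = 0.392). Ntn4, a netrin of basement membranes, was at -5.67 and -4.98 before and -3.06 and -3.55 after treatment (2.02 ± 0.37, adjusted p = 0.0831).

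In mES cells the same treatment left most guidance genes within 2-fold. The pair of mES arrays has no replicate, so ratios are given without a test. None of the 53 genes above background on either array was 2-fold higher, where 1.44% of all genes were, and 2 were 2-fold lower, where 1.16% were. These were Epha2 (-1.57) and Robo4 (-1.20), both of which also fell in EpiSCs with the line as a block. In the E3.5 line, 32 of 63 genes were 2-fold higher and 8 lower, against 11.7% and 20.2% of all genes. That pair of arrays lay on different slides, so treatment and slide cannot be told apart there. In the E5.5 line, 23 of 61 were higher and 10 lower, against 6.69% and 9.04%. In both EpiSC lines 19 genes were 2-fold higher, where 4.78% of all genes were. By brightest probe these were Efna5, Efnb3, Epha3, Epha4, Epha7, Epha10, Ephb1, Sema3b, Sema3d, Sema4f, Sema6d, Plxna2, Plxnb1, Slit2, Robo2, Ntn4, Dcc, Unc5a and Unc5c. Among them, Epha3, Epha10, Sema3d, Robo2, Ntn4 and Dcc were above background on EpiSC arrays only. The 5 that were 2-fold lower in both were Epha1, Epha2, Sema3e, Robo4 and Unc5b, where 5.99% of all genes were. No gene was 2-fold higher in one line and 2-fold lower in the other.

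**Figure D3:**
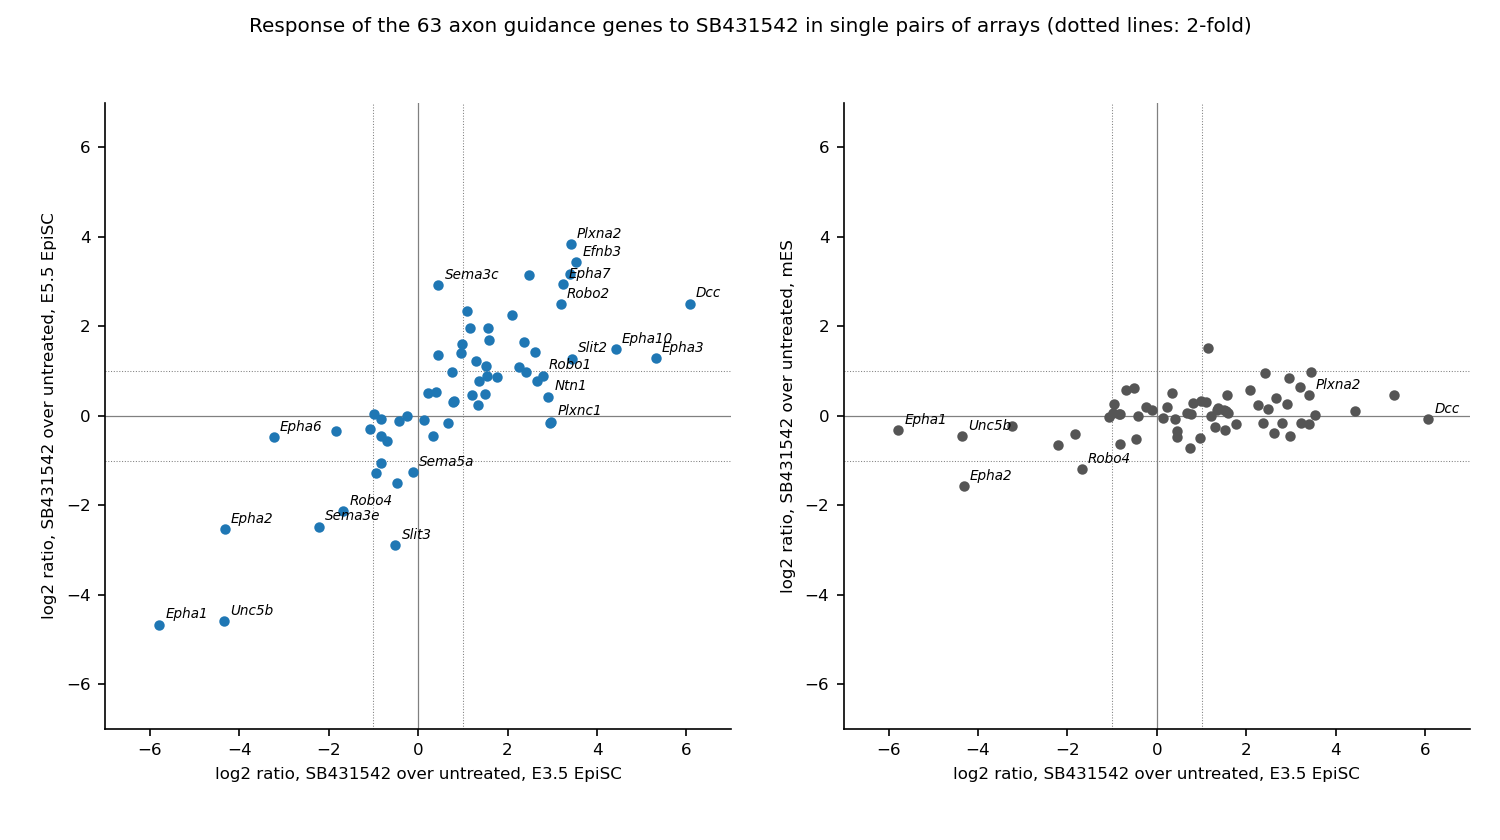
Ratio of treated to untreated array (log2) for the 63 guidance genes, with the E3.5 EpiSC pair on the horizontal axes and the E5.5 EpiSC pair (left) or the mES pair (right) on the vertical axes; each point is a gene, also where it was not above background, and dotted lines mark 2-fold. Points spread along the diagonal on the left, with 19 genes above 2-fold and 5 below it in both lines, and lie near 0 on the vertical axis on the right.

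The difference between the EpiSC and the mES response was tested directly, and none of the 63 genes passed (0 of 16153 genes in all, 0%; limma). At an unadjusted p under 0.05 there were 15 guidance genes and 6.87% of all genes, and with the line as a block 19 guidance genes and 9.32% of all genes, with again 0 after adjustment. The response is therefore not shown to differ between EpiSCs and mES cells for any gene named above. A single response over the 3 lines also gave 0 calls, 0% of all genes, with 20 of the 63 genes at an unadjusted p under 0.05 (8.65% of all genes), and 8 with no line block (3.63% of all genes). In that fit Epha2 had a change of -2.81 ± 0.57 and Robo4 of -1.67 ± 0.26 (adjusted p = 0.502 for both). With one or the other mES array left out, the EpiSC lines alone give the response, as in the fit with the line as a block.

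Without SB431542, only Efnb1 separated EpiSCs from mES cells by the test. Efnb1 was at -0.63 and -1.13 in untreated and treated mES cells, at 2.99 and 2.87 in untreated E3.5 and E5.5 EpiSCs and at 3.97 and 4.28 in treated ones. The difference between untreated EpiSCs and mES cells was 3.56 ± 0.34 (limma adjusted p = 0.0283), and no EpiSC array came near either mES array. It was the 1 guidance gene called higher (0.390% of all genes were) and none was lower (1.11% of all genes), or 1.59% of the 63 against 1.50%, a share close to the background. The call did not hold without the untreated E3.5 array (adjusted p = 0.0553) or without either treated EpiSC array (adjusted p = 0.0873 each). At an unadjusted p under 0.05 there were 26 of the 63, and 16.4% of all genes, and the median difference was 0.78 against -0.06 for all genes. Epha1 (2.46, adjusted p = 0.0948) and Unc5b (1.26, adjusted p = 0.156) were among those not called. The summed level of 16 fibroblast markers, which a feeder layer could contribute, was 68.5 and 80.0 in the mES cultures and between 140 and 220 in the EpiSC cultures. Such a sum rests mostly on the brightest genes, such as Vim (4.31 in untreated mES and 5.89 in untreated E3.5 cells), while Fn1 was at 1.87 and -0.26. The mean log2 level of the list was 0.29 and 0.70 in untreated and treated mES cells. It was 0.67 and 2.02 in untreated E3.5 and E5.5 EpiSCs, and 1.48 and 1.44 after treatment. The part of a feeder layer in the Efnb1 values was not tested.

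After SB431542, 17 guidance genes were higher in EpiSCs than in mES cells and 2 were lower. That is 30.2% of the 63, where 5.35% of all genes were higher and 5.32% lower (10.7% in all). The median difference was 1.39, against -0.34 over all genes, and 37 of the 63 had an unadjusted p under 0.05, against 28.7% of all genes. All 3 ephrin-B ligands were higher, Efnb1 by 5.25 ± 0.34 and Efnb3 by 4.51 ± 0.31 (limma adjusted p = 0.00761 for both) and Efnb2 by 3.65 (adjusted p = 0.014). Efnb2 was at -0.61 and -1.08 in mES cells, 1.89 and 1.43 in untreated EpiSCs and 2.33 and 2.80 in treated EpiSCs, and its difference without treatment, 2.27, did not pass. All 3 also passed with normexp background correction and with quantile normalization. Of the ephrin-A ligands, Efna5 was higher by 3.77 (adjusted p = 0.00945), although a second probe, to another transcript accession, gave 0.24, and Efna2 by 2.71 (adjusted p = 0.0254). Efna2 was at -3.70 and -3.51 in mES cells, -2.20 and -1.54 in untreated and -0.84 and -0.77 in treated EpiSCs.

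Among the receptors, Plxna2 was higher by 5.43 ± 0.38 (43.2-fold; limma adjusted p = 0.00761), Epha7 by 4.67 (adjusted p = 0.012), Unc5a by 4.25 (adjusted p = 0.00952), Ephb1 by 3.95 (adjusted p = 0.019) and Plxnb1 by 2.51 (adjusted p = 0.0192). Plxnb1, the receptor of Sema4d, was at -0.55 and -0.87 in mES cells, 0.22 and 0.45 in untreated EpiSCs and 1.74 and 1.55 in treated ones. Epha1 and Unc5b were the 2 lower genes, by -2.45 ± 0.46 (adjusted p = 0.0412) and -2.77 ± 0.32 (adjusted p = 0.0147). Without treatment both EpiSC lines had values above both mES arrays for these 2 genes, so the sign of the difference was opposite in the treated arrays. Unc5c (2.95, adjusted p = 0.0484) passed narrowly and was lost with normexp (adjusted p = 0.0501), quantile normalization (adjusted p = 0.0513) and the mean over probes (adjusted p = 0.0511).

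Other ligands were also higher in treated EpiSCs. Sema6d, a membrane semaphorin that binds plexin A receptors, was at -3.58 and -3.33 in mES cells, -2.12 and -1.29 in untreated EpiSCs and 0.13 and -0.20 in treated EpiSCs (3.29, limma adjusted p = 0.0233). Sema3d, Robo2 and Ntn4 were in the test only through the EpiSC arrays, where they are high, so their calls are given as a description. Without such genes, 14 of the 52 guidance genes above background on all 6 arrays were higher and 2 lower, where 5.31% and 4.54% of the 14479 such genes were. By the processed signal treated EpiSCs were at least 6.37-fold (Sema3d, adjusted p = 0.0112), 7.95-fold (Robo2, adjusted p = 0.012) and 7.77-fold (Ntn4, adjusted p = 0.0118) higher. These bounds set the brighter group's mean against the lowest signal called well above background on the mES array. With normexp the differences were only 1.26, 1.46 and 1.33 on the log2 scale, below these bounds, and the 3 calls were lost (adjusted p = 0.121, 0.115 and 0.143), as was that of Sema3f (2.34, adjusted p = 0.04; 0.0977 with normexp and 0.0639 with the mean over probes). Sema3f, a ligand of Nrp2, was at -4.79 and -4.51 in mES cells, -3.10 and -2.39 in untreated and -2.29 and -2.04 in treated EpiSCs. Slit2 was higher by 3.64 (adjusted p = 0.0464), and that call was lost with quantile normalization (0.0564) and with the mean over probes (0.0575).

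Dcc, Epha3 and Epha10 were also in the test only through EpiSC arrays. By the processed signal and the mean of the 2 treated EpiSC lines, they were at least 31.2-fold, 16.1-fold and 9.66-fold above treated mES cells. They were not above background there, and normexp differences fell below bounds of this kind for Sema3d, Robo2 and Ntn4. The treated lines lay far apart, at 0.55 and -3.15 for Dcc, -0.52 and -3.98 for Epha3 and -1.58 and -4.40 for Epha10. These bounds are therefore too high for the E5.5 line alone. None of the 3 passed limma (adjusted p = 0.0563, 0.0868 and 0.0585). Leaving out the treated E3.5 array ended all 19 calls. Without the treated E5.5 array, the calls of Efna2, Epha1, Sema3f, Sema6d and Unc5c were lost.

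**Figure D4:**
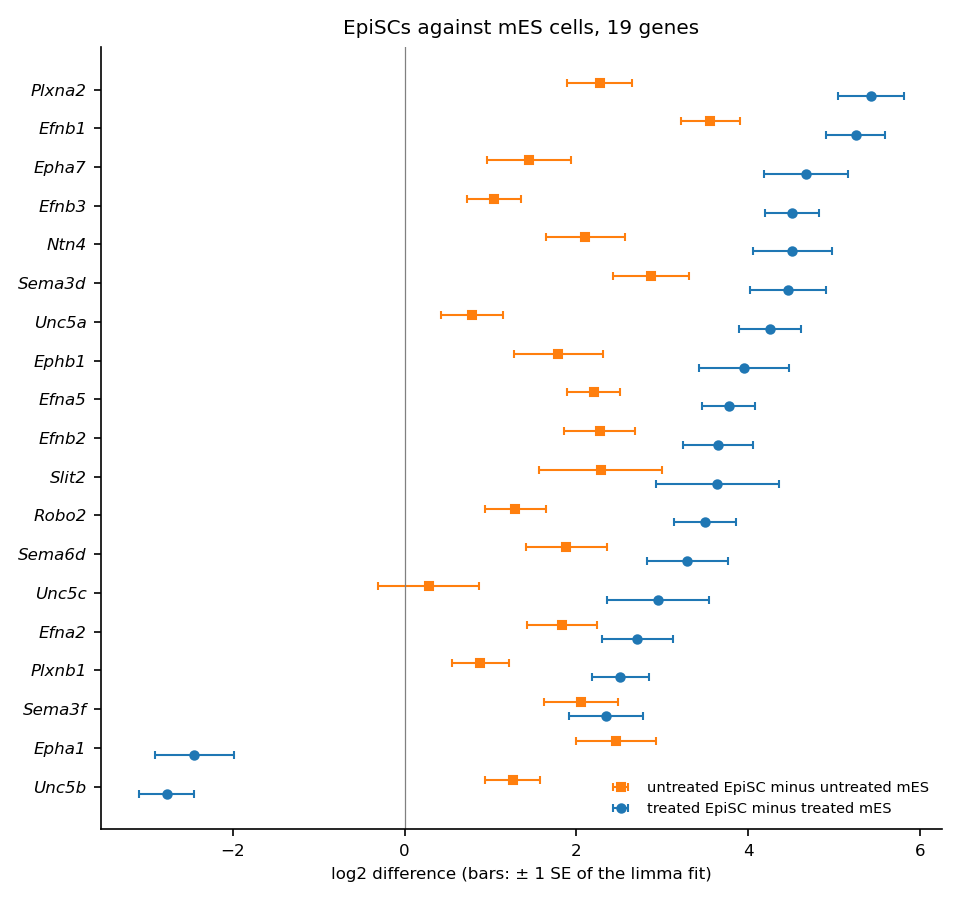
Difference between EpiSCs and mES cells (horizontal axis, log2) for the 19 guidance genes that passed limma after SB431542, untreated (squares) and treated (circles); bars are 1 SE of the fit. Efnb1 is at 3.56 untreated and 5.25 treated, while Epha1 and Unc5b lie above 0 untreated and at -2.45 and -2.77 treated.

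The E3.5 and E5.5 lines were also set against each other. By limma 0 of the 63 genes differed, where 0% of all genes did, and the 5 of 63 with an unadjusted p under 0.05 were at the background of 7.83% of all genes. Between the untreated arrays, 3 of 62 genes were 2-fold higher in E5.5 and 4 were lower, near the 6.14% and 3.88% of all genes. Between the treated arrays, a pair chosen after the data were seen, 4 of 62 were higher in E5.5 and 15 were lower, against 10.9% and 6.11%. The largest of these were Dcc (-3.70), Epha3 (-3.47), Ntn1 (-2.83), Epha10 (-2.82) and Epha5 (-2.39), and the 4 higher were Sema3c (1.72), Epha2 (1.29), Unc5c (1.16) and Sema3b (1.03). After treatment 13 genes were 2-fold higher in the E3.5 line alone, among them Robo1, Ntn1, Nrp1, Nrp2, Epha5 and Plxnc1, where 6.63% of all genes were, and 4 in the E5.5 line alone (Efnb1, Efnb2, Sema3c and Slit1), where 1.70% were. The genes 2-fold lower in one line alone were 3 in E3.5 (13.7% of all genes) and 5 in E5.5 (2.75%). Being past 2-fold in one line and not the other is not a test of the difference. The 2 E3.5 arrays also lay on different slides, while the E5.5 arrays shared one. Nrp2 had a log2 ratio of 0.98 in the E5.5 line and Efnb1 one of 0.97 in the E3.5 line, both just short of 2-fold. Plxna4, also among the 13, had 1.15 in E3.5 and 1.96 in E5.5 cells, where it was not above background and so was not counted.

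No marker of differentiated neurons passed the line comparison (0 of 12 by limma), and the following levels are a description of single arrays. Each E3.5 array lay on a slide of its own. The summed level of 12 markers of differentiated neurons was 9.31 and 8.25 in mES cells, 27.0 and 10.9 in untreated E3.5 and E5.5 EpiSCs and 98.9 and 25.3 after treatment. Dcx, a microtubule protein of migrating neurons, was at 1.72 in treated E3.5 and -0.68 in treated E5.5 cells, and Dcc, Epha3 and Epha10 were likewise higher in treated E3.5 than in treated E5.5 cells. The summed level of 16 neuroectoderm progenitor markers came to 218 and 157 in treated E3.5 and E5.5 cells, from 18.7 and 17.3 before, and that of 9 neural crest markers to 9.78 and 8.67, from 2.79 and 4.85. In the test of SB431542 in EpiSCs, 5 of 16 neuroectoderm markers rose (Hes5, Nr2f1, Zic1, Nr2f2, Pou3f2), 2 of 12 neuron markers (Elavl4, Tubb3) and 1 of 9 neural crest markers (Pax3), where 0.891% of all genes did. None of these 3 lists had a call for a fall, and 0 of 16 fibroblast markers passed. Their median changes were 2.16, 3.2 and 0.09, against -0.19 for all genes. Members with negative changes, not called, included Otx2 (-4.05) and Six3 (-0.97) of the neuroectoderm list and Foxd3 (-2.43) and Snai2 (-0.97) of the neural crest list. The share of the guidance genes' values that comes with these cell types was not tested.

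**Figure D5:**
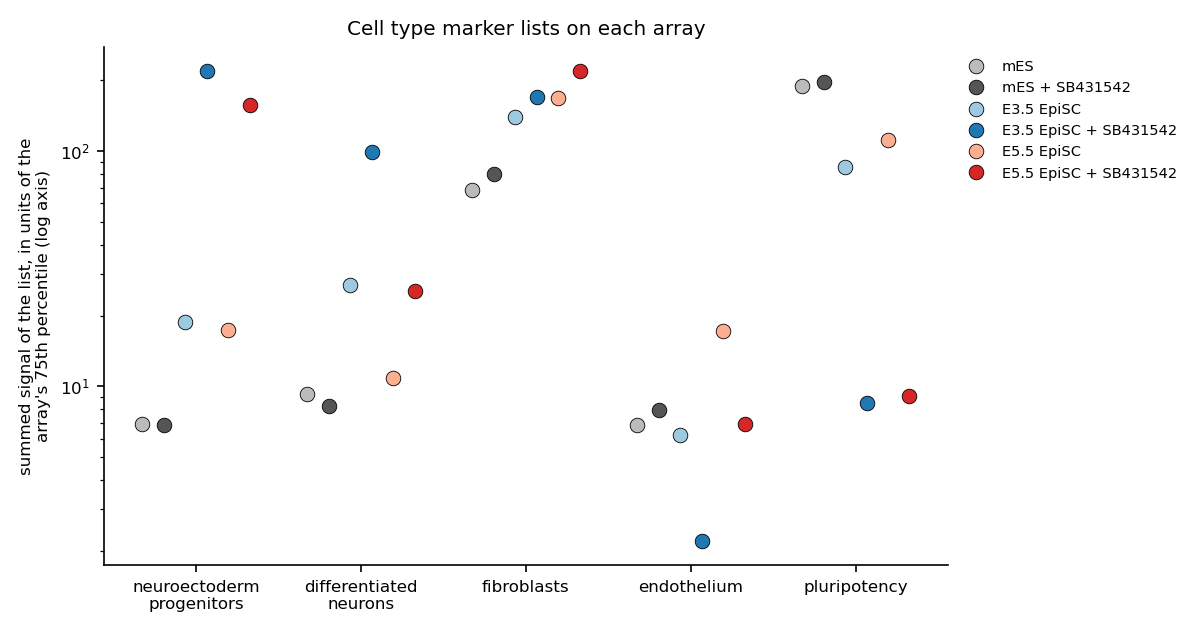
Summed level of each marker list (multiples of the array's 75th percentile, log axis) on the 6 arrays; each point is an array. The neuroectoderm sum is 218 and 157 in treated EpiSCs and under 19 elsewhere, and the neuron sum is 98.9 in treated E3.5 against 25.3 in treated E5.5 cells.

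The remaining marker lists changed as follows with SB431542 in EpiSCs. Of 10 pluripotency markers 5 fell (Pou5f1, Fgf5, Nanog, Tdgf1 and Utf1), where 1.20% of all genes did. The summed levels of the 10 were 86.0 and 112 before and 8.52 and 9.06 after treatment. Of 10 mesendoderm markers 3 fell (Cer1, T and Eomes). None of 8 trophectoderm or 7 primitive and visceral endoderm markers passed, where 2.09% of all genes did in either direction.

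Other genes of the guidance pathways, the co-receptors, adaptors and cytoskeletal effectors that act with these receptors, were counted as a list of 48, of which 47 were tested. With SB431542 in EpiSCs 4 of 47 rose and 0 fell, where 0.891% and 1.20% of all genes did: Boc by 3.47, a co-receptor of hedgehog in commissural axons; Dpysl3 by 3.19, a collapsin response mediator that acts below semaphorins; Gap43 by 2.43, a growth cone protein; and Srgap1 by 2.15, a Slit-Robo GTPase activating protein. Their median change was 0.67, against -0.19 for all genes. In treated EpiSCs against treated mES cells 9 of 47 were higher and 0 lower, where 5.35% and 5.32% of all genes were, with Rgma (5.59), a repulsive ligand of neogenin, Gap43 (4.81), Dpysl3 (4.73), Cntn2 (4.49), Boc (4.2) and Dpysl2 (4.19) the largest. Without treatment, and in the difference of responses, none of the 47 passed by limma.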

How the data were processed

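Probe intensities and detection flags were read from the deposited scanner files, 1 per array; per the file headers they were made with Agilent Feature Extraction 10.7.1.1, while the submitters' processing notes name version 9.1. The intensity used is the authors' deposited processed signal, background-subtracted by that software, and the flags are the deposited scores for spots well above background or saturated (0 saturated of 43379 gene spots per array). The authors' deposited value table equals these intensities.

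The files gave no gene names for the probes, so accessions were matched to RefSeq genes of GRCm38.p6: 24375 of 41174 probes had a name, 17016 genes. Levels are log2 intensity minus each array's 75th percentile, spots of 1 probe averaged, the brightest probe standing for its gene. The 16153 genes above background on at least 1 array were fitted with limma 3.58.1 (R 4.3.3; lmFit and eBayes, Benjamini-Hochberg over all of them, threshold 0.05), with 4 groups (untreated and treated mES cells and EpiSCs, 2 residual degrees of freedom), or line plus treatment for the response over 3 lines and the line difference. Single pairs of arrays were compared at 2-fold. The script was tested on simulated data.

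Treated and untreated arrays of one line are paired by the line named in the labels; deviations of same-line arrays from their group means correlated at r = 0.274 over 16151 genes. Alternatives were the line as a block, normexp background correction (offset 50, on median signals because mean signals were not used here), quantile normalization, the filter on dim probes, the mean over probes, each array left out, and values within the shared slide. The fit with the line as a block has 1 residual degree of freedom. The number of arrays limits the precision. The guidance genes, the lists and their tests were chosen with earlier results of these data known; per-array values are given for genes that passed a test with or without the block, for the 15 with the widest range, and for their known partners. Other genes of the pathways were named where they passed, at most 6 per comparison.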

Additional observations from a re-analysis of the deposited data

How the results depend on the processing

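With 1 array per group and 2 residual degrees of freedom, single arrays decide many of these calls. With the line as a replicate block 14 guidance genes passed for SB431542 in EpiSCs, against 7 without; the block changed no call of the difference of responses. Leaving out single arrays gave 0 to 1 calls for untreated EpiSCs against mES cells (0 without untreated E3.5 or either treated EpiSC array), 0 to 7 for SB431542 in EpiSCs, 0 to 25 for treated EpiSCs against treated mES cells (0 without treated E3.5) and 0 to 14 for the response over 3 lines; where a lone array was left out no value could be had. The untreated comparison gave 2 calls among genes above background on all 6 arrays, and the mES pair 4 genes past 2-fold with the mean over probes, against 2. The other counts stayed within 1.5 times. Of the single-gene values, 326 kept their direction and side of the threshold, 55 lost and 12 gained the call, 4 moved and 0 reversed. Normexp moved the median of all genes from -0.06 to 0.13 (untreated EpiSCs against mES) and from -0.19 to -0.33 (SB431542 in EpiSCs), while those of the guidance genes went from 0.78 to 0.73 and from 1.07 to 0.43; quantile normalization moved that of treated EpiSCs against treated mES cells from -0.34 to -0.20. The slide as a random block could not be fitted, and naming by RefSeq accession was already the main setting. Genes near background, such as Sema3d, Robo2, Ntn4 and Dcc in mES cells, have only bounds there.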

Other observations

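Different probes of one guidance gene did not always give the same difference, and the brightest probe alone was used above. For Sema6a, a membrane semaphorin, the brightest probe gave an untreated EpiSC minus mES difference of 0.67 (log2), whereas its second probe, with the same accession, gave 4.38. For Sema5b, which guides cortical axons, the change with SB431542 in EpiSCs was 0.47 by the brightest probe and 3.38 by the second. The probes of Sema4d, the Plxnb1 ligand, gave treated EpiSC minus mES differences of -0.34 and -1.75. For Slit2 the 2 probes gave 2.36 and 2.53 with SB431542 in EpiSCs, and for Efnb2 0.90 and 0.77. Which transcripts the disagreeing probes measure was not tested.

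Some guidance genes hardly varied by the brightest probe. Efna4, an ephrin-A ligand, stayed between -0.36 and 0.45 on the 6 arrays, a range of 0.81. Ephb4, the receptor of Efnb2, had a range of 0.90, and Sema4d and Sema5b of 0.66 and 0.70. The second probes of Sema4d and Sema5b gave larger differences, as stated above, so the flat values hold for their brightest probes only.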
